A study of Mus musculus with 66 samples.

Results

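The subject here is the translation machinery on 1 filter of mouse cDNA clones: initiation and elongation factors, aminoacyl-tRNA synthetases and proteins of the mitochondrial ribosome. Members were the probes with 1 gene symbol whose symbol begins with Eif, Eef, Mrpl or Mrps, or is a capital letter followed by "ars" and an optional digit. This gave 75 probes for 62 of the 4209 named genes (8448 probes in all): 20 initiation factors, 7 enzymes and binding proteins that are named after a factor and regulate it, 4 elongation factors, 3 cytosolic and 4 mitochondrial tRNA synthetases, and 19 large and 5 small subunit proteins of the mitochondrial ribosome. No filter on signal was applied. A further 13 probes carried a member's symbol beside other symbols (7 of them with Eef2) and were not used, so the elongation factor eEF2 is not described.

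Cerebellum was taken from 66 male and female C57BL/6 mice, with 1 array per mouse; the labels name no transgene or deletion in any group. Calorie-restricted mice (CR) ate regular feed to 13 weeks of age and then 90%, 75% and finally 60% of a fortified feed, whereas ad libitum mice (AL) had free access to regular feed. CR mice were studied in cohorts of about 6 (9 mice, 174 to 194 days old), 16 (10 mice, 472 to 499 days) and 24 months (8 mice, 673 to 743 days). AL mice were studied at 17-21 days (5 mice) and 33-44 days (5), and in the cohorts of 6 (10 mice, 169 to 194 days), 16 (10 mice, 476 to 499 days) and 24 months (9 mice, 704 to 743 days). Restricted males of the oldest cohort were all 673 days old, against 719 to 743 days for the AL males, so that diet and age cannot be told apart there. Each value is a Z score: it places a spot within the distribution of its own array, with 0 at the array's mean and 1 at its standard deviation, and a difference of Z scores is not a fold change.

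Translation begins when initiation factors load the small ribosomal subunit with the initiator tRNA and recruit it to the cap of the mRNA. Elongation factors then bring charged tRNAs to the ribosome, and the tRNAs are charged by synthetases. Kinases that phosphorylate eIF2 and proteins that bind eIF4E slow initiation during stress or food shortage. Mitochondria translate a few inner membrane proteins on ribosomes of their own, whose proteins are encoded in the nucleus and imported. In neurons local translation at synapses has been linked to plasticity, and mutations of several synthetase genes cause disease of peripheral nerves or the brain.

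Several properties of the arrays bear on every value. The arrays correlated with one another by a median of 0.968, but 3 restricted arrays stood apart and were left out of the values below: male 16 months CR replicate 2 (median correlation 0.695), female 16 months CR replicate 2 (0.701) and female 24 months CR replicate 2 (0.820). On the first and second of these, every 22nd probe in the numbering, called position 8 here, averaged -2.70 and -2.69, against 0.309 on the 63 arrays used. Eef1b2 and Mrpl44 lay there and read -2.94 and -2.57 on that male array, below their lowest values of -1.12 and -0.82 among the arrays used. Gene names stand for probes as annotated. The first 2 probes of a gene had levels that correlated by only 0.111 over 561 genes with several probes, and by 0.675 over the 8 member genes with several. Xist, the RNA that coats the inactive X chromosome of females, averaged -0.982 ± 0.149 in females (SD, n = 33) and -1.03 ± 0.157 in males (n = 30). The Y-linked Uty averaged -0.701 ± 0.173 in females and -0.735 ± 0.144 in males. The ranges of both probes overlapped, so neither told the sexes apart. The Purkinje cell genes Calb1 and Car8 ranked above 54.8% and 85.6% of the named genes, with mean Z scores of -0.0150 and 0.841. The haemoglobin gene Hba-a1 averaged -0.0472 and Alas2, which red cell precursors need for haem, -1.21. Other cell type markers were the glial gene Slc1a3 (0.0348) and the microglial genes C1qa (-1.50) and C1qb (0.620). The connective tissue genes Col3a1, Col1a1, Col1a2 and Dcn averaged 0.668, 0.285, 0.0211 and -0.554. Markers of the same cell type thus did not read alike.

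The members spanned most of the range of the array (plot of levels by class). Their mean Z scores ran between -1.89 for Eif4ebp3 and 1.92 for Mrpl1, with a median of -0.284 against -0.122 over all named genes, and 23 of 62 (37.1%) lay above 0 against 44.5% of all named genes. Among initiation factors, Eif1a read highest (mean 1.68, ranging over the 63 mice between 1.30 and 2.11); its product helps the small subunit to find the start codon. Eif4g3, a scaffold that bridges the cap-binding protein and the ribosome, averaged 1.28, and Eif4e2, a relative of the cap-binding protein that can hold mRNAs back, 0.840. Low readings within the class came from Eif2s2, the beta subunit of eIF2, at -1.60 and from Eif3h at -1.18. Genes whose products work in 1 complex did not read alike: the 6 subunits of eIF3 averaged 0.551 (Eif3c), -0.220 (Eif3d), -0.405 (Eif3b), -0.450 (Eif3a), -1.08 (Eif3m) and -1.18 (Eif3h).

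**Figure D1:**
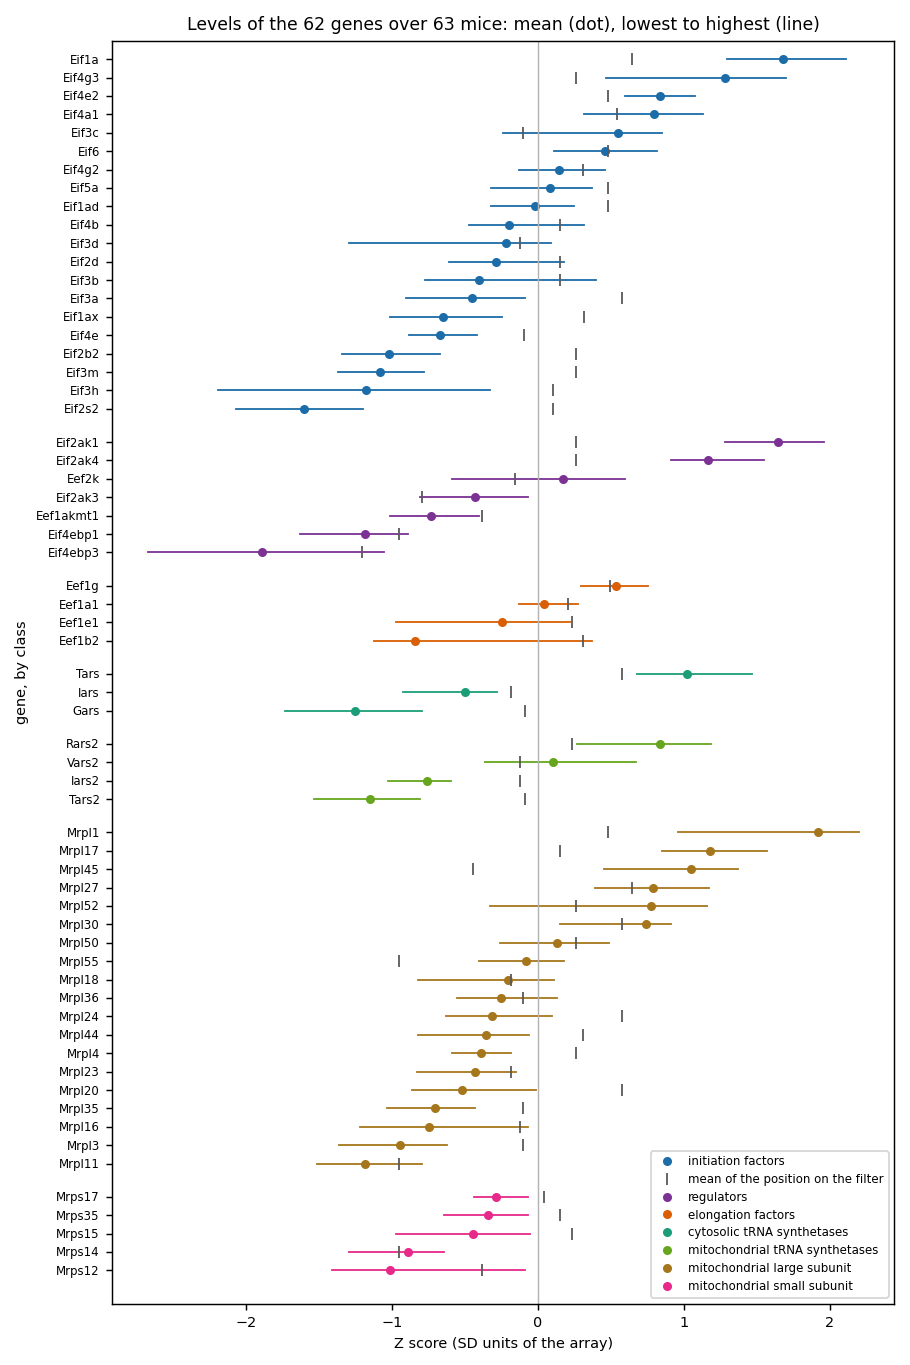
Mean Z score of each of the 62 genes (dot), with the lowest and highest of the 63 mice (line), by class; the x axis is in SD units of the array and the short vertical mark is the mean of all probes at the gene's position or positions in runs of 22 probe numbers. Every class except the mitochondrial small subunit holds genes on both sides of 0, and the 5 Mrps genes all lie below it.

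Regulators were as widely spread. Eif2ak1 and Eif2ak4, the eIF2 kinases known for sensing haem and uncharged tRNA, averaged 1.65 and 1.17, while Eif2ak3, the kinase of the endoplasmic reticulum stress response, averaged -0.431. The eIF4E-binding proteins read low, Eif4ebp1 at -1.18 and Eif4ebp3 at -1.89, and Eef2k, the kinase that inactivates eEF2, averaged 0.176. Of the elongation factors, Eef1g averaged 0.539 and Eef1a1, which carries charged tRNA to the ribosome, 0.0447, near the middle of the array. Eef1e1, a scaffold protein of the synthetase complex, averaged -0.248. The cytosolic synthetases were Tars (threonine, 1.02), Iars (isoleucine, -0.498) and Gars (glycine, -1.25), and the mitochondrial ones Rars2 (arginine, 0.840), Vars2 (valine, 0.107), Iars2 (-0.758) and Tars2 (-1.15). In the large mitochondrial subunit Mrpl1, Mrpl17 (1.18) and Mrpl45 (1.05) read highest and Mrpl11 (-1.18) lowest, around a class median of -0.250. In the small subunit the range was -1.01 (Mrps12) to -0.284 (Mrps17). These levels are descriptions: on such filters they also depend on the length and amount of each spotted clone, and genes were not compared with each other by a test.

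Levels also went with the place of a probe in the numbering, taken as its position in runs of 22 probe numbers. The 22 positions had mean Z scores between -1.21 and 0.644, and the level of a member probe correlated by 0.470 with the mean of its position over 75 probes, against 0.487 over all 8448 (no source used here says what a position stands for on the filter). Within a gene the order of the probes followed the means of their positions in some cases only. Eef1g followed them: its probes at position 7 averaged 1.26, 0.681 and 0.524, and those at position 10 averaged 0.179 and 0.0518. Eif4g2 and Eif1ax did so too, and Eef1a1 in part. In Mrps17, Mrpl45, Eif4e and Iars2 the higher probe lay at the position with the lower mean. For Mrpl45 the position means were -0.796 for the higher probe and -0.0890 for the lower. Probes of Eif4g2, a relative of eIF4G that cannot bind eIF4E, averaged 0.556, 0.297 and -0.416. The pair of probes of Mrps17 averaged 0.202 and -0.770 and moved against each other over the 63 mice (r = -0.589), whereas the pair for Mrpl45 moved together (r = 0.860), at 1.29 and 0.812. The mean of a gene's probes is used below, and for several genes it joins probes that differed in level or did not move together over the mice, among them Mrps17, Eif4g2, Eef1g (lowest r of a pair = -0.501) and Iars2 (r = -0.116).

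**Figure D2:**
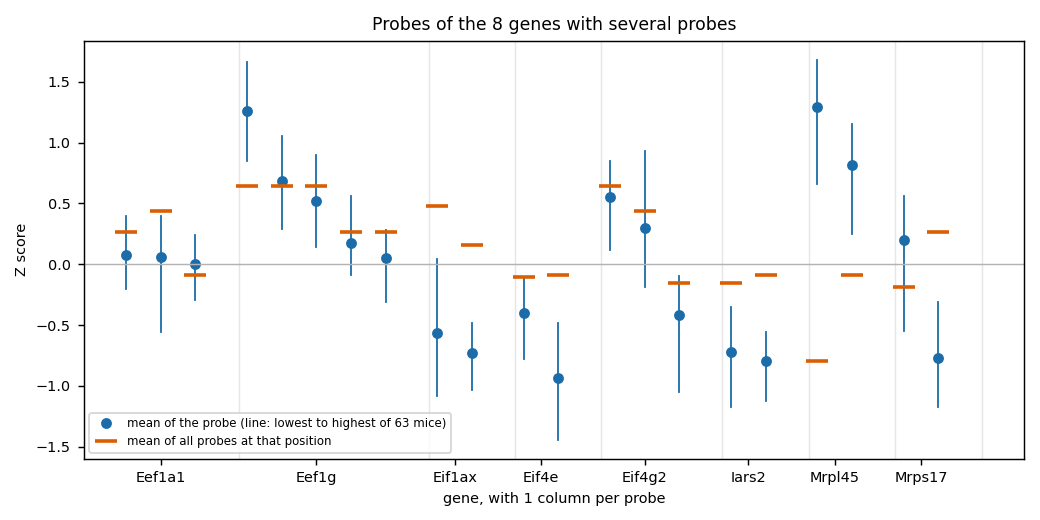
Mean Z score of each probe of the 8 genes with several probes (dot, with a line for the lowest and highest of 63 mice) and the mean of all probes at that position (orange bar); the y axis is in SD units of the array. The probes of Eef1a1 lie within 0.0748 of each other, whereas those of Eef1g span 1.21 and those of Mrps17 span 0.973.

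RefSeq promoter sequences (GRCm38.p6, 250 bases before and 50 after an annotated start) were at hand for 52 of the 62 members, and 6 motifs were searched on both strands or, for the last, at the start itself. CCGGAAGT, the core that factors of the ETS family such as GABPA recognise and that is common in genes for mitochondria and ribosomes, stood in 11 of 52 members (21.2%) against 4.31% of 27025 genes. The E-box CACGTG, read by MYC and related factors, stood in 9 (17.3% against 8.09%) and TATAAA in 4 (7.69% against 15.7%). TGATGNAAT, the element through which ATF4 and its partners raise synthetase genes in amino acid shortage, was found in 2 members (3.85% against 1.08%), Gars and Iars, out of 3 cytosolic synthetases. The palindromic site of NRF1, a factor of nuclear genes for mitochondria, was found in 0 members against 1.07% of all genes, and a C followed by 4 pyrimidines at the annotated start, as in mRNAs under control of mTOR, in 0 against 3.01%. None of the motifs searched contains another, some genes have several annotated starts, and a match is a description of the letters only. The 30 bases around the Gars and Iars matches are shown for their likeness, on the strand of the gene and with the match in capitals, which in both is the reverse complement of the motif as written. They lie at chr6:55037960-55037989 and chr13:49682126-49682155 (plus strand of both).
Gars: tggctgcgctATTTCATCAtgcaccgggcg
Iars: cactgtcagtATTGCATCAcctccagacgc

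The ETS core is shown for 5 of these members, chosen after their values were seen as examples from several classes; capitals again mark the match, in its reverse complement for Eif3d, Rars2 and Eif2ak1. The places are chr9:105053238-105053267 (Mrpl3, plus strand), chr11:94653725-94653754 (Mrpl27, plus), chr15:77970877-77970906 (Eif3d, minus), chr4:34614941-34614970 (Rars2, plus) and chr5:143817796-143817825 (Eif2ak1, plus). Matches began between 240 bases before the annotated start and 16 bases after it, over the 11 genes. The 11 genes with the core had mean Z scores between -1.02 (Eif2b2) and 1.65 (Eif2ak1), and the 41 without it between -1.60 and 1.92.
Mrpl3: tgagaaacggaCCGGAAGTggcccggctgt
Mrpl27: gtccgcaagacCCGGAAGTagatctatccc
Eif3d: agctgtgacacACTTCCGGttgtgtctcac
Rars2: aagcagaggcgACTTCCGGcgcggaggcgg
Eif2ak1: gctcttgtgttACTTCCGGcttggggggag

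Class levels differed little over ages and diets (plot of class means per mouse). In bulk tissue fewer cells of a type and less RNA per cell cannot be told apart. The mean over all 62 genes lay between -0.142 ± 0.0227 (SD, n = 5) at 17-21 days and -0.117 ± 0.0404 (n = 10) in AL mice of 6 months, and the groups overlapped. Initiation factors averaged -0.164 ± 0.0427 at 17-21 days and -0.0910 ± 0.0760 in AL mice of 6 months. The only groups of any class that did not overlap were the initiation factors at 17-21 days (-0.237 to -0.128) and in CR mice of 16 months (-0.122 to 0.0224), which were not compared by a test. Initiation factors averaged -0.121 ± 0.0237 in CR mice of 24 months (n = 7) and -0.101 ± 0.0755 in AL mice of that age (n = 9). The mitochondrial small subunit averaged -0.501 ± 0.0737 at 17-21 days, the highest of its 8 group means, and -0.583 ± 0.0835 in AL mice of 6 months, and the 2 groups overlapped. For the large subunit all 8 group means lay between 0.0153 and 0.0365. Members did not move as a block: over the 1891 pairs of members, deviations from the group means correlated by a median of 0.0275, against 0.00152 for all named genes, and within initiation factors by 0.101. These pairs share arrays and are given as a description.

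**Figure D3:**
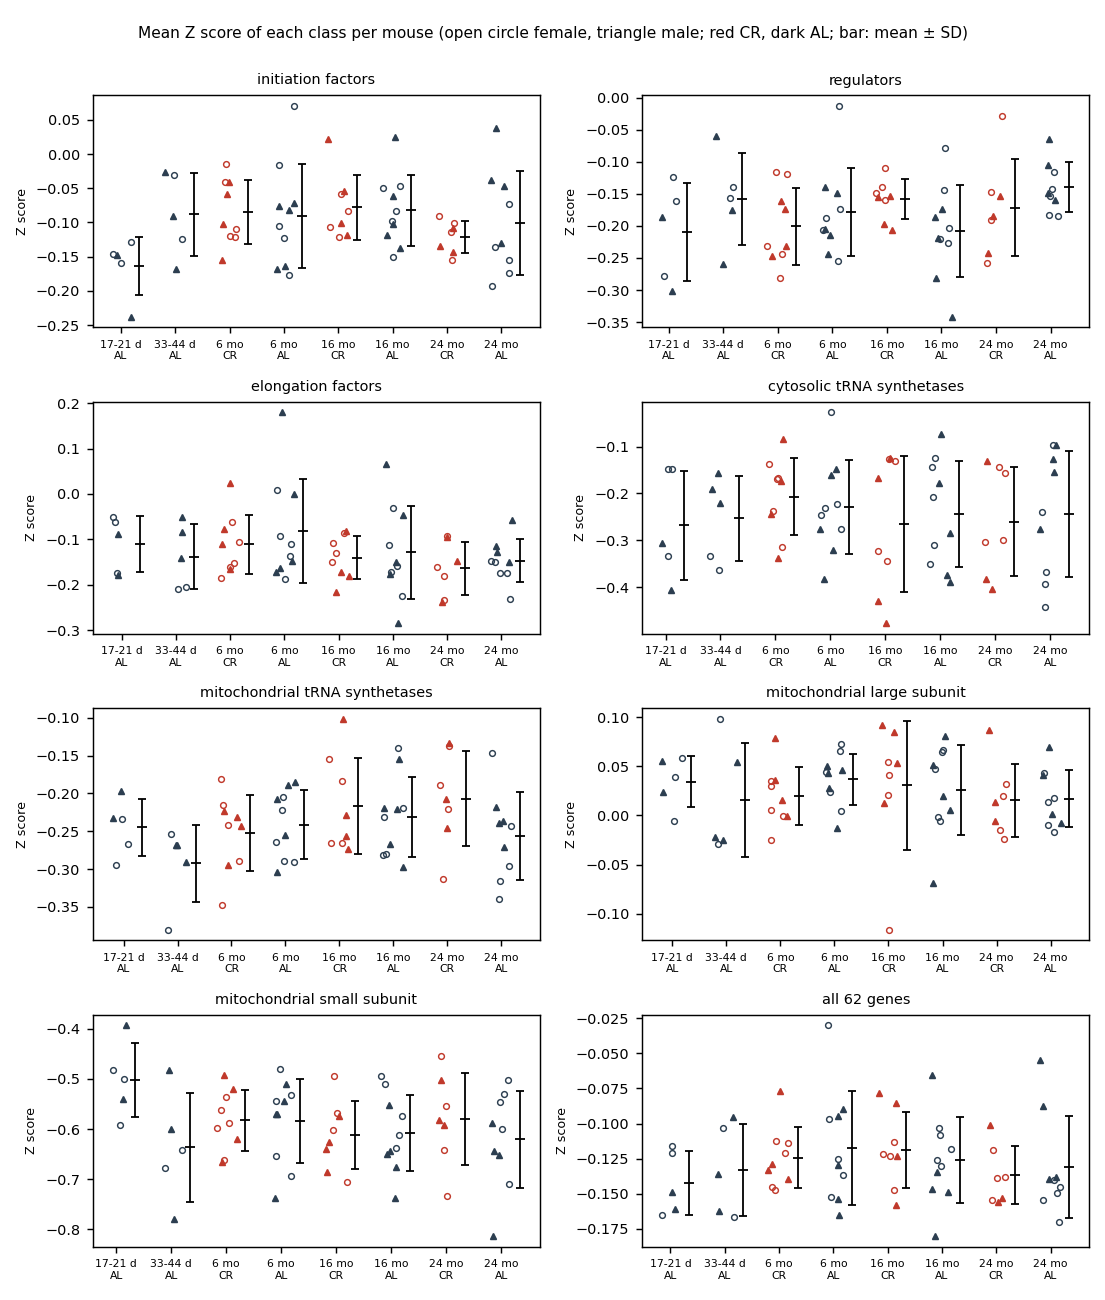
Mean Z score of each class in each of the 63 mice (y axis, SD units of the array) by age and diet (x axis), females as open circles, males as triangles, with the group mean and SD. Groups overlap in every class, except initiation factors at 17-21 days and in CR mice of 16 months; the mitochondrial small subunit lies between -0.592 and -0.393 at 17-21 days and between -0.737 and -0.480 in AL mice of 6 months.

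In AL mice of 24 months, set against AL mice of 6 months, 0 of 62 members passed an adjusted p of 0.05 (limma, Benjamini-Hochberg over 7782 genes and unnamed probes), and 0.00% of all features did. At an unadjusted p under 0.05 there were 2 members, where 2.49% of all features met that limit; both had negative differences, as 1.45% of all features did. Differences of members had a median of -0.0115 and ran between -0.212 and 0.153, and their unadjusted 95% intervals reached a median of 0.144 to either side. The adjusted limit is stricter than these intervals: on simulated data for this comparison 63 of 100 shifts of 0.3 passed it. In that simulation 100 other features were shifted by 0.6 as well, which eases the adjusted limit. How often a single shifted gene would pass was not simulated. The member with the smallest p was Eif3b, a core subunit of eIF3 (chromosome 5, 140419305 to 140443358, GRCm38.p6). In AL mice of 24 months Eif3b had a lowest value of -0.63, a median of -0.52 and a highest of -0.40 (n = 9), and in AL mice of 6 months a lowest of -0.56, a median of -0.40 and a highest of 0.40 (n = 10). The groups overlapped, and the highest 6-month value came from female replicate 2, while the next mouse was at -0.20. With the sexes weighted equally, Eif3b differed by -0.212 ± 0.0705 (SE; limma adjusted p = 1), and by -0.140 without that mouse.

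Tars2, the mitochondrial threonine synthetase (chromosome 3, 95739974 to 95756365), was the other member under that limit. Its values ran between -1.53 and -1.08 with a median of -1.17 in AL mice of 24 months, against -1.27 to -0.91 with a median of -1.10 in AL mice of 6 months. The 2 ranges overlapped except for 3 females of 24 months at -1.53, -1.40 and -1.38. The difference was -0.130 ± 0.0563 (limma adjusted p = 1). Against AL mice of 16 months it was -0.135 ± 0.0563 (limma adjusted p = 1), and the difference of Tars2 at 33-44 days from AL mice of 6 months was -0.150 ± 0.0678 (limma adjusted p = 1). These comparisons share AL groups and are not independent of each other.

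Vars2, the mitochondrial valine synthetase (chromosome 17, 35655634 to 35667639), had the widest range of group means over ages and diets of any member, 0.347. In CR mice of 6, 16 and 24 months it averaged 0.0733 ± 0.135 (SD, n = 9), 0.188 ± 0.308 (n = 8) and 0.231 ± 0.159 (n = 7). In AL mice it averaged -0.116 ± 0.148 (n = 5) at 17-21 days, 0.120 ± 0.147 (n = 5) at 33-44 days, then 0.0590 ± 0.147 (n = 10), 0.0920 ± 0.135 (n = 10) and 0.161 ± 0.128 (n = 9) at 6, 16 and 24 months. All 5 mice of 17-21 days lay at or below 0.01 and overlapped every other group except the 7 CR mice of 24 months, which lay at or above 0.06. Neither the range of group means nor such gaps between groups were counted over all features. Neither the difference between 24 and 6 months in CR mice, 0.160 ± 0.0904 (limma adjusted p = 1), nor that in AL mice, 0.107 ± 0.0820 (limma adjusted p = 1), passed the test. At 17-21 days the difference from 6 months was -0.189 ± 0.0988 (limma adjusted p = 0.485), or -0.109 without male 17-21 days AL replicate 1. After each array's positions were set to common means, that young difference was -0.13.

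Between the other adult ages counts were as low, with 0 members called in each comparison and 0.00% of all features. In AL mice of 16 months against 6 months, 0 members had an unadjusted p under 0.05 (1.34% of all features). Eef1e1 had the smallest p there, with a difference of -0.185 ± 0.109 (limma adjusted p = 1). In AL mice of 24 months against 16 months, 3 members met that limit (3.92% of all features): Tars2, Eif3b at -0.147 ± 0.0705 (limma adjusted p = 1) and Eif4ebp1 at 0.140 ± 0.0687 (limma adjusted p = 1). In CR mice of 24 months against 6 months 0 members did (1.12% of all features), and 23 of 62 differences were above 0 where 50.8% of all features were. In CR mice of 24 months against 16 months 2 members did (2.51% of all features), Eif2ak4 and Mrpl3. Of the 20 initiation factors, 2 were above 0 in CR mice of 24 against 6 months (median -0.02985), and 8 in AL mice. At 24 against 16 months 4 were above 0 in CR mice (median -0.0446, with 52.0% of all features above 0), and 9 in AL mice. Both CR comparisons use the same 24-month CR arrays.

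**Figure D4:**
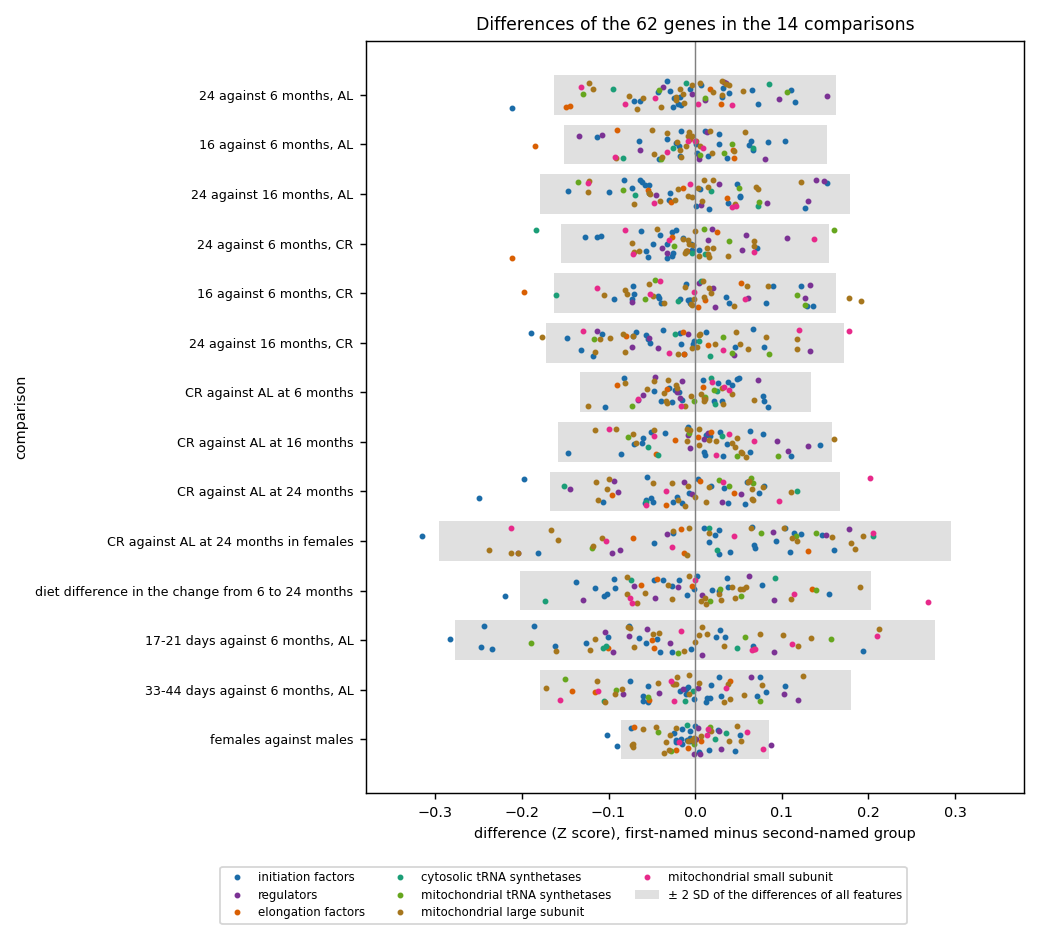
Difference in Z score of each of the 62 genes (dots, coloured by class) in the 14 comparisons, first-named minus second-named group; the grey bar spans 2 SD of the differences of all 7782 features to either side of 0. Most members lie inside the bar in each comparison, and the farthest members lie at -0.315 for the diets in females of 24 months and at -0.283 for 17-21 days.

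In CR mice of 16 months against CR mice of 6 months, 3 members had an unadjusted p under 0.05 (2.13% of all features), all with positive differences (1.43%): Eif2ak4, Mrpl3 and Tars2. Under the first criteria of the study (a Z-ratio of at least 1.5, a mean Z score above 0 and an unadjusted p under 0.05, here that of limma; the later analysis of variance was not applied) Eif2ak4 alone was picked (0.450% of all features). Eif2ak4 (chromosome 2, 118388583 to 118475234), the kinase that senses amino acid shortage, lay between 1.13 and 1.55 with a median of 1.225 in CR mice of 16 months (n = 8) and between 1.03 and 1.28 with a median of 1.13 in CR mice of 6 months (n = 9). The highest values, 1.55 and 1.42, belonged to 1 female and 1 male of 16 months, and the other mice of both ages overlapped. The difference was 0.133 ± 0.0469 (limma adjusted p = 1.00), and 0.0867 without the female at 1.55 (replicate 5). The difference of CR mice of 16 months from AL mice of that age was 0.107 ± 0.0457 (limma adjusted p = 1.00), and that of CR mice of 24 months from those of 16 months was -0.113 ± 0.0501 (limma adjusted p = 0.999). Without that female these were 0.0617 and -0.0675. All 3 comparisons use the same 16-month CR arrays.

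Mrpl3, a protein of the large mitochondrial subunit (chromosome 9, 105053268 to 105077466), also read high on those arrays. It lay between -0.95 and -0.71 with a median of -0.775 in CR mice of 16 months, against -1.19 to -0.72 with a median of -1.03 in CR mice of 6 months, so that the 16-month mice filled the upper part of the 6-month range. The difference was 0.192 ± 0.0810 (limma adjusted p = 1.00). In CR mice of 24 months against CR mice of 16 months it was -0.176 ± 0.0865 (limma adjusted p = 0.999).

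Restriction was set against ad libitum feeding within each age, and 0 members were called at any age, with 0.00% of all features called. At 6 months 0 members had an unadjusted p under 0.05 (0.655% of all features), and differences of members ran between -0.124 and 0.0835. At 16 months 4 members did (2.13% of all features). Eif2ak4, Mrpl3 (0.160 ± 0.0789, limma adjusted p = 1.00) and Eif2ak3 (0.131 ± 0.0624, limma adjusted p = 1.00) had positive differences, CR minus AL, and the eIF3 subunit Eif3m a negative one (-0.147 ± 0.0713, limma adjusted p = 1.00). Eif2ak3 lay between -0.58 and -0.11 in CR mice of 16 months and between -0.66 and -0.32 in AL mice of 16 months, and the groups overlapped.

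At 24 months Eif3d, the eIF3 subunit that can itself bind the cap (chromosome 15, 77958998 to 77970824), was the only member with an unadjusted p under 0.05 (2.25% of all features). It had a lowest value of -0.80, a median of -0.33 and a highest of -0.14 in CR mice (n = 7) and a lowest of -0.19, a median of -0.12 and a highest of 0.09 in AL mice (n = 9). The groups met only between -0.19 and -0.14, and 1 CR female at -0.80 stood apart. The difference was -0.250 ± 0.109 (limma adjusted p = 1.00), and -0.183 without that female. Eif3d was more scattered in CR mice of 16 months, where 1 female read -1.29. Mrps12, of the small mitochondrial subunit (chromosome 7, 28739641 to 28741821), followed at 0.202 ± 0.107 (limma adjusted p = 1.00), or 0.0748 without female 24 months CR replicate 3. It ran between -1.26 and -0.09 in CR mice and between -1.31 and -0.89 in AL mice of 24 months. The value of -0.09 belonged to female replicate 3 of the CR group, and without it the difference was 0.0748.

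In females alone at 24 months, 4 CR mice were set against 5 AL mice. The differences of members had the largest SD of the 14 comparisons, 0.127 (0.148 over all features), and ran between -0.315 and 0.206. Of all members 37 of 62 were above 0 (59.7%, against 49.6% of all features), and of the initiation factors 16 of 20. With both sexes at 24 months, 8 of the 20 initiation factors were above 0, with a median difference of -0.0182. In the females 0 members were called (0.00% of all features) and 1, Eif3d, had an unadjusted p under 0.05 (5.37% of all features). Eif3d read -0.14, -0.31, -0.33 and -0.80 in the CR females, against -0.12, 0.09, -0.13, -0.10 and -0.14 in the AL females. Of the 4 CR values, 3 lay below all AL values, and the difference was -0.315 ± 0.144 (limma adjusted p = 0.739), or -0.180 without the female at -0.80. Mrpl3 read -1.36, -1.01, -0.83 and -1.34 in CR females and -1.22, -0.95, -0.77, -0.94 and -0.73 in AL females, which overlapped, with a difference of -0.213 ± 0.111 (limma adjusted p = 0.739), or -0.138 without female 24 months CR replicate 1 and -0.109 with array weights. With the 3 arrays of low correlation included, 1 of them from this group, 16 members had an unadjusted p under 0.05 (8 higher, 8 lower, 24.9% of all features) and 0 were called. On that array of a CR female 30 of 62 members lay outside the range of the 63 arrays used.

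Whether the change between 6 and 24 months differed between the diets was tested directly. Here 0 members were called (0.00% of all features), 0 had an unadjusted p under 0.05 (0.90% of all features), and the largest difference, that of Mrps12, was 0.268 ± 0.145 (limma adjusted p = 1), or 0.141 without female 24 months CR replicate 3.

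Differences at 17-21 days, from 5 mice, were more spread than those at 24 months, from 9. Their SD over the members was 0.110 at 17-21 days and 0.0701 at 24 months in AL mice, both against 6 months, and over all features 0.138 and 0.0814. At 17-21 days against AL mice of 6 months, 32 of 7782 features were called (0.411%), none of them a member. Without adjustment 8 members had a p under 0.05 (12.9%), against 10.7% of all features; 4 were higher (5.00% of all features) and 4 lower (5.69%), and the same first criteria of the study picked 3, Eif3c, Eif4g3 and Mrpl27 (4.07%). Those below AL mice of 6 months were the initiation factors Eif2s2, Eif3c, Eif4g3 and Eif3b. Those above them were Eif4b, which stimulates the helicase eIF4A, and Mrpl27, Mrps15 and Mrps17 of the mitochondrial ribosome. For Eif3b the 6-month group holds the female at 0.40, where the next mouse was at -0.20. The Mrps17 value is a mean of 2 probes that moved against each other (r = -0.589). Its SD over the mice was 0.0756, against 0.170 and 0.159 for the single probes. In all, 24 of 62 members (38.7%) had a difference above 0, where 51.5% of all features did. This held for 5 of 20 initiation factors (median -0.0605) and 4 of 5 small subunit proteins (median 0.0692); over all features the median was 0.00600.

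Eif2s2, which carries part of the site where eIF2 meets its exchange factor, read -2.07, -1.50, -1.85, -1.83 and -1.93 at 17-21 days, against a lowest value of -1.80, a median of -1.57 and a highest of -1.20 in AL mice of 6 months (n = 10). All but 1 young mouse lay below the adult range. The difference was -0.283 ± 0.106 (limma adjusted p = 0.337), and it was -0.196 after each array's positions were set to common means. Mrpl27 (chromosome 11, 94653770 to 94661932), named after its values were seen, read 0.83, 0.85, 1.17, 1.04 and 0.99 at 17-21 days, against 0.39 to 0.98 with a median of 0.795 at 6 months. Of the 5 young mice, 3 lay above the adult range, and the difference was 0.212 ± 0.0813 (limma adjusted p = 0.358).

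Eif3c (chromosome 7, 126546911 to 126566366) had the smallest p of the members in the young. It read 0.40, 0.41, -0.24, 0.54 and 0.62 at 17-21 days, against 0.28 to 0.75 with a median of 0.585 in AL mice of 6 months. Only male replicate 1, at -0.24, lay outside the adult range. Eif4g3 showed the same mouse apart, at 0.47, with 1.27, 1.17, 1.17 and 1.33 in the other young mice and 1.08 to 1.51 at 6 months. Their differences were -0.244 ± 0.0876 (limma adjusted p = 0.3001) and -0.234 ± 0.0886 (limma adjusted p = 0.343). Without this male Eif3c differed by -0.0290. Without male replicate 2, which left male replicate 1 as the only young male, Eif3c (-0.459, adjusted p = 0.000165 by limma), Eif4g3 (-0.449, adjusted p = 0.000288) and Mrpl30 (-0.290, adjusted p = 0.000861) were among 572 features called. The array of male replicate 1 had a median correlation of 0.921 with the others, the lowest of those used.

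**Figure D5:**
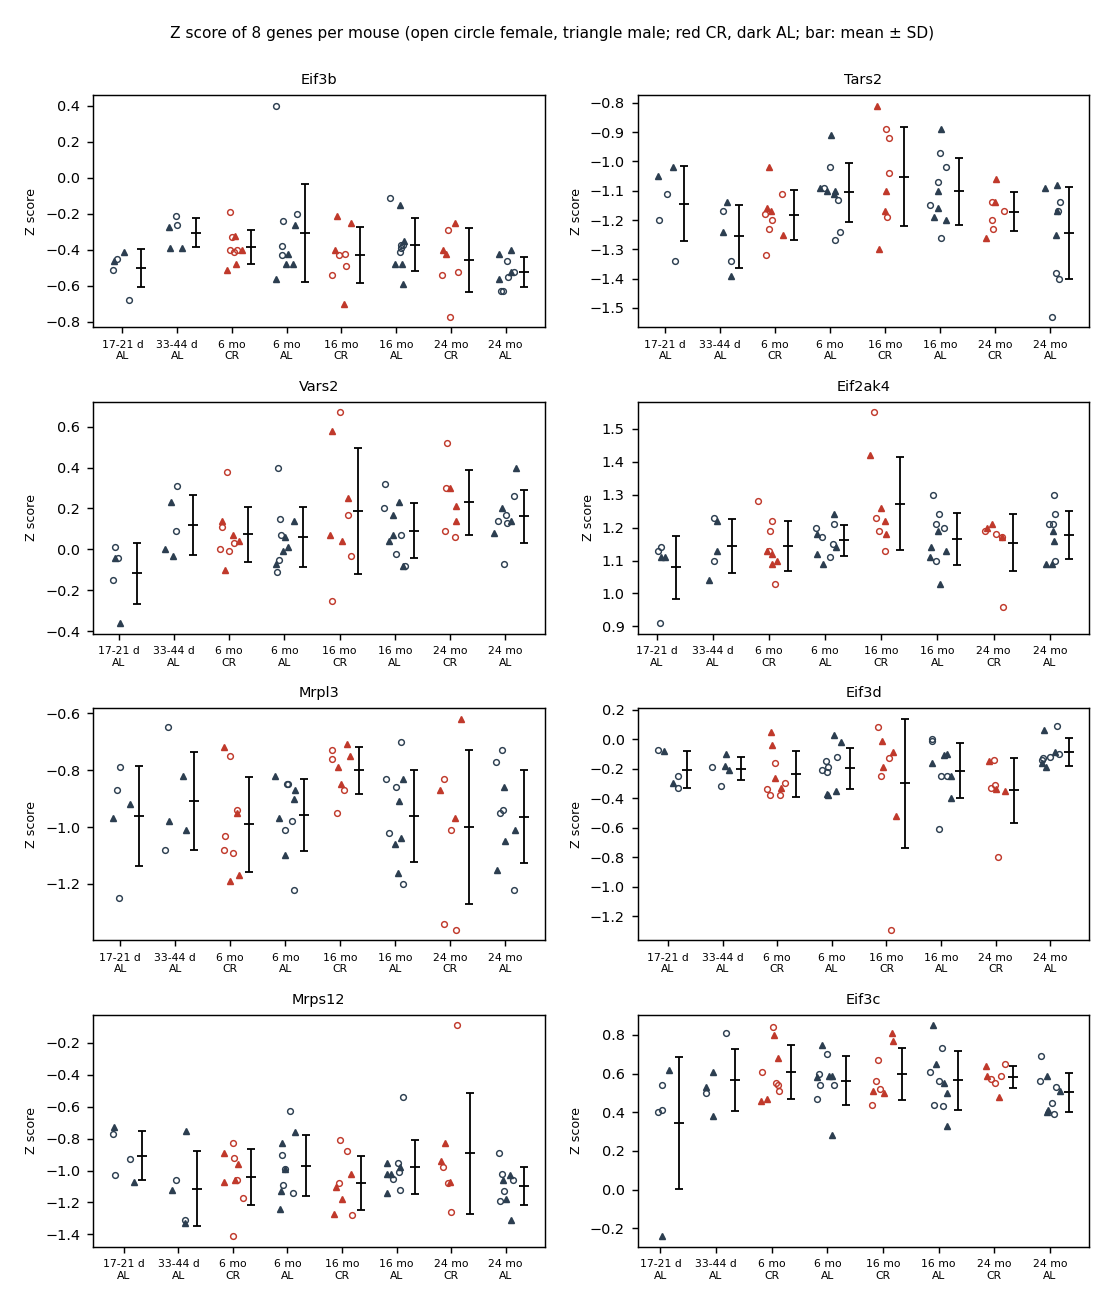
Z score (y axis, SD units of the array) of 8 genes in each of the 63 mice by age and diet (x axis), females as open circles, males as triangles, with the group mean and SD. Single mice stand apart in several panels, among them 1 female at 0.40 for Eif3b, 1 female at -0.09 for Mrps12, 1 female at -1.29 for Eif3d and 1 male at -0.24 for Eif3c.

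At 33-44 days against AL mice of 6 months, 2 members had an unadjusted p under 0.05 (1.72% of all features), Tars2 and Mrpl35 (-0.172 ± 0.0826, limma adjusted p = 1), and 0 were called (0.00% of all features). The difference of Mrpl35 was -0.1095 without male 33-44 days AL replicate 3 and -0.0616 with array weights. Between females and males, over ages and diets, 0 members were called (0.00% of all features) and 2 had an unadjusted p under 0.05 (1.29% of all features). For Eif1ad, related to eIF1A, the difference of females from males was -0.0897 ± 0.0307 (limma adjusted p = 1.00). It had a median of -0.05 in adult females (n = 28) and 0.05 in adult males (n = 25), with ranges of -0.32 to 0.16 and -0.20 to 0.25. Mrps35 differed by 0.0784 ± 0.0350 (limma adjusted p = 1.00).

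Other genes of translation that the symbol rule leaves out were read from a list of 17, among them Mtor, Rptor and Tsc1 of the growth pathway, the eIF4E kinases Mknk1 and Mknk2, the release factor Gspt1, the stress transcription factor Atf4 and the synthetase genes Eprs and Farsa. In AL mice of 24 months against 6 months 0 of 17 were called and none reached an unadjusted p of 0.05, with a median difference of 0.0275. At 17-21 days, where 10.7% of all features did, 1 of 17 did, Aimp2 of the synthetase complex, at -0.251 ± 0.0866 (limma adjusted p = 0.260). Atf4 averaged 1.14, Rptor 1.85 and Eprs -1.21. No gene of the list or of 11 markers was called in any comparison. The 11 markers were genes of Purkinje cells, glia (Slc1a3, C1qa and C1qb), blood and connective tissue. None was of granule cells, oligodendrocytes, endothelium or choroid plexus. Of the 11, 3 had an unadjusted p under 0.05 at 17-21 days (10.7% of all features): Car8 (-0.290), Calb1 (0.161) and Col1a2 (-0.172). The part of cell composition in the members' values at that age was not tested.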

How the data were processed

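Radiolabelled cDNA of each mouse was hybridized to a nylon filter, and the authors quantified the spots and deposited 1 table of Z scores, which set every array to a mean of 0 and an SD of 1. The sources used here do not say if intensities were first put on a log scale or what was done about background, and no depth or detection call exists; the number of arrays limits the precision. Gene symbols came from the platform annotation; all 75 member probes matched a RefSeq gene ID.

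Probes of a gene were averaged. A linear model with 1 mean for each of 16 groups of sex, age and diet was fitted to 63 arrays with limma 3.58.1 in R 4.3.3 (47 residual degrees of freedom; two-sided tests; sexes weighted equally), for 14 comparisons over 7782 features. Arrays with a median correlation under 0.9 were left out. p-values were adjusted by Benjamini-Hochberg and called under 0.05. On simulated data for 24 against 6 months in AL mice, 63 of 100 shifts of 0.3 and 98 of 100 of 0.6 were recovered among 7782 features, with 3 false calls. Both sets of 100 features were shifted together, which eases the adjusted limit for each. The simulated noise was normal and independent between features, without outlying mice or sets of arrays. For both reasons recovery in the data can be lower, and recovery of a single shifted gene was not simulated. Tables were handled in Python 3.11.15.

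Members, lists and the omission of 3 arrays were chosen with earlier results of these data known. Named genes were the 3 highest of each class, the 2 smallest p of each comparison, genes with several probes, those at the faulty position and Vars2; Eif3a, Eif3h, Eif3m, Eif4b, Eif4ebp3, Mrpl11, Mrpl27, Mrpl30 and the other genes outside this rule were named after their values were seen. Alternatives were all 66 arrays, array sets (runs of array numbers) as a block, a mean Z score above 0, quantile normalization, position correction, array weights (whose fit stopped before convergence), single probes, the study's criteria on Z-ratio, level and p (with limma's p; its two-way ANOVA was not applied) and leaving out each mouse. The labels give each array a mouse of its own.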

Additional observations from a re-analysis of the deposited data

Results flagged for a closer look

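In 38 named genes, 304 groups of 5 to 10 mice were examined for a highest or lowest mouse set far from its nearest neighbour for the range of its group (Dixon's criterion). In 28 cases (9.21%) a mouse stood out, where the criterion flags about 1 in 20 groups of independent normal values. The groups share mice over the genes, and many of the genes were named for a small p in these data. The share is therefore a description and was not tested against that rate. They fell on 20 genes and 17 mice. No cause was tested.

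Female 6 months AL replicate 5 stood at 2.04 for Eif1a (nearest mouse 1.75), -0.07 for Eif2ak3 (nearest mouse -0.31), -0.44 for Eif4e (nearest mouse -0.615), -0.84 for Mrps15 (nearest mouse -0.53) and 0.40 for Vars2 (nearest mouse 0.15). Male 17-21 days AL replicate 1 lay at -0.73 for Eif2ak3 (nearest mouse -0.47), -0.24 for Eif3c (nearest mouse 0.40) and 0.47 for Eif4g3 (nearest mouse 1.17). Female 16 months AL replicate 5 read 1.55 for Mrpl1 (nearest mouse 1.82) and -0.54 for Mrps12 (nearest mouse -0.95). Female 16 months CR replicate 5 stood at -1.29 for Eif3d (nearest mouse -0.52) and 0.96 for Mrpl1 (nearest mouse 1.82). Female 24 months CR replicate 5 lay at -0.80 for Eif3d (nearest mouse -0.35) and -0.78 for Iars (nearest mouse -0.48). Male 16 months CR replicate 5 read -0.97 for Eef1e1 (nearest mouse -0.40) and -1.02 for Mrpl35 (nearest mouse -0.77). Male 17-21 days AL replicate 2 stood at 1.30 for Eif1a (nearest mouse 1.58) and 0.68 for Tars (nearest mouse 0.96). Female 17-21 days AL replicate 3 lay at 0.91 for Eif2ak4 (nearest mouse 1.11). Female 24 months AL replicate 2 read 1.28 for Eif2ak1 (nearest mouse 1.54). Female 24 months CR replicate 1 stood at 0.96 for Eif2ak4 (nearest mouse 1.17). Female 24 months CR replicate 3 lay at -0.09 for Mrps12 (nearest mouse -0.83). Female 33-44 days AL replicate 1 read -0.11 for Mrps35 (nearest mouse -0.35). Female 6 months AL replicate 2 stood at 0.40 for Eif3b (nearest mouse -0.20). Female 6 months CR replicate 5 lay at 0.38 for Vars2 (nearest mouse 0.14). Male 16 months CR replicate 4 read -1.025 for Iars2 (nearest mouse -0.83). Male 24 months AL replicate 4 stood at -0.81 for Eif2ak3 (nearest mouse -0.52). Male 6 months AL replicate 2 lay at 0.37 for Eef1b2 (nearest mouse -0.69). The median correlation with the other arrays was 0.927 for female 6 months AL replicate 5, with 5 of these values, and 0.921 for male 17-21 days AL replicate 1, with 3. Many of the mice named here came from 1 array set, set 5, which holds 12 of the 63 arrays used. They were female replicate 5 of 6 and 16 months AL and of 6, 16 and 24 months CR, male 16 months CR replicate 5 and male 24 months AL replicate 4. Their median correlations ran between 0.922 and 0.953, against a median of 0.968 for the arrays used. Whether the set played a part was not tested.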

How the results depend on the processing

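No member was called in any of the 14 comparisons in the fit to 63 arrays, and this count was also 0 with all 66 arrays, with the array set as a block, with genes of mean Z score above 0 only, after quantile normalization or position correction, with array weights and with each probe by itself. Under the study's criteria on Z-ratio, level and p, with limma's p and without its analysis of variance, 1 member was called in CR mice of 16 against 6 months, Eif2ak4, where 0.450% of all features were, and 3 at 17-21 days against 6 months, Eif3c, Eif4g3 and Mrpl27, where 4.07% were. On leaving out single mice the number of members called at 17-21 days ran between 0 and 3, and it was 0 for the other comparisons; the 3 calls came without male 17-21 days AL replicate 2, which leaves a single array for the young males. Over all features the 32 calls at 17-21 days became 0 with all 66 arrays, 0 after quantile normalization, 4 with array weights and 50 among genes of mean Z score above 0; the cause was not tested. Members with an unadjusted p under 0.05 varied more. With array weights there were 10 in AL mice of 24 against 6 months (16.9% of all features) and 10 in CR mice of 24 against 16 months (13.7%), against 2 each, 8 at 33-44 days (9.57%) against 2, 12 for the diets in females of 24 months (19.7%) against 1, and 3 at 17-21 days (4.68%) against 8. With all 66 arrays there were 16 for the diets in those females (24.9%), and 6 (8.74%) against 3 (2.13%) in CR mice of 16 against 6 months. Array weights also moved single genes: Eif3b was -0.126 in AL mice of 24 against 6 months, against -0.212, and Eif2ak4 0.0658 in CR mice of 16 against 6 months, against 0.133, -0.0406 in CR mice of 24 against 16 months, against -0.113, and 0.0649 for the diets at 16 months, against 0.107. Class medians for the diets in females of 24 months moved beyond the spread in several cases: that of the cytosolic synthetases was 0.210 with all arrays and 0.206 with genes of mean Z score above 0 only (which leaves 1 gene), against 0.0250, and with the same limit on level that of the large subunit was -0.107 against -0.00750 and that of the mitochondrial synthetases -0.00125 against 0.0965. No direction reversed among the named genes in the comparisons they are named for. No paired analysis was possible because the labels number no replicates and the numbers used here follow accession order. The median reach of the members' unadjusted intervals was 0.0868 to 0.214 to either side, depending on the comparison. Intervals of single members were wider or narrower than these medians.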
